A study of Mus musculus with 4 samples.

Results

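The Hippo pathway and its TEAD transcription factors were described through 10 genes, Yap1, Wwtr1, Tead1, Tead2, Tead4, Lats1, Lats2, Nf2, Sav1 and Vgll4, chosen by name from the 53465 genes of a raw count table. All 10 were found once in the table, and all 10 passed the filter on low counts. The RNA came from B16-F10, a mouse melanoma line, whose fluorescent cells had been infused into zebrafish and afterwards grown in IMDM with 10% serum. Of 4 polyA libraries, 2 are labelled as extravasated (cells that had left the fish's vessels) and 2 as not extravasated, which are the controls of the design. The growth text describes recovered, extravasated cells for all 4, so group membership was taken from the label that records extravasation as yes or no. The labels name no genotype, no drug and no separate cultures, so p-values measure the spread between these libraries, which may be technical.

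In the Hippo pathway, the MST kinases with their scaffold Sav1 activate the LATS kinases with MOB1, and merlin, the product of Nf2, promotes this at the membrane. LATS kinases phosphorylate YAP (Yap1) and TAZ (Wwtr1), which keeps them out of the nucleus. Unphosphorylated YAP and TAZ bind TEAD factors on DNA and activate genes of growth and adhesion, and VGLL4 competes with them for TEADs. Much of this control acts on proteins and is not seen in transcript counts.

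Library totals ran from 11705904 to 19674733 counts. Of 7 melanocyte markers none was at 0, and their summed level was 23904 to 28884 CPM (read counts scaled to a common library size with TMM factors) in the non-extravasated and 29901 to 30903 CPM in the extravasated libraries. Fibroblast markers summed to 8.51 and 8.85 CPM against 10.8 and 11.3 CPM, with 2 of 6 at 0 in every library (Dcn and Lum). Leukocyte markers summed to 3.69 to 4.69 CPM with 3 of 5 at 0 (Ptprc, Cd3e and Itgam). Endothelial markers summed to 0.0868 to 0.984 CPM with 3 of 5 at 0 (Cdh5, Kdr and Tek), epithelial markers to 0.694 and 0.637 CPM against 1.14 and 1.16 CPM with 4 of 5 at 0, and all 3 red cell markers were at 0. The melanocyte, fibroblast and epithelial sums were thus higher in both extravasated libraries, but not every marker was. The melanocyte regulator gene Mitf stood at 529.8 and 321 CPM against 166 and 203 CPM, Tyr at 585 and 439.8 against 373 and 305 CPM, and the fibroblast marker Pdgfra at 2.60 and 3.93 against 1.36 and 1.05 CPM. The part of these markers in the results was not tested.

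Of the 10 genes, 2 were higher and 4 lower in extravasated cells. Tead4 and Nf2 rose, Lats1, Tead1, Wwtr1 and Sav1 fell, and Yap1, Tead2, Lats2 and Vgll4 did not pass the threshold (edgeR quasi-likelihood test, adjusted p under 0.05). Of 12320 tested genes, 45.1% passed, 19.1% higher and 25.9% lower, so the count among the 10 lies near what the whole table shows. The median log2 fold change was -0.10 over the 10 genes and -0.02 over all tested genes. The groups did not overlap for 8 of the 10 genes, against 76.3% of all tested genes. In bulk libraries, fewer cells with a transcript and less of it per cell cannot be told apart.

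**Figure D1:**
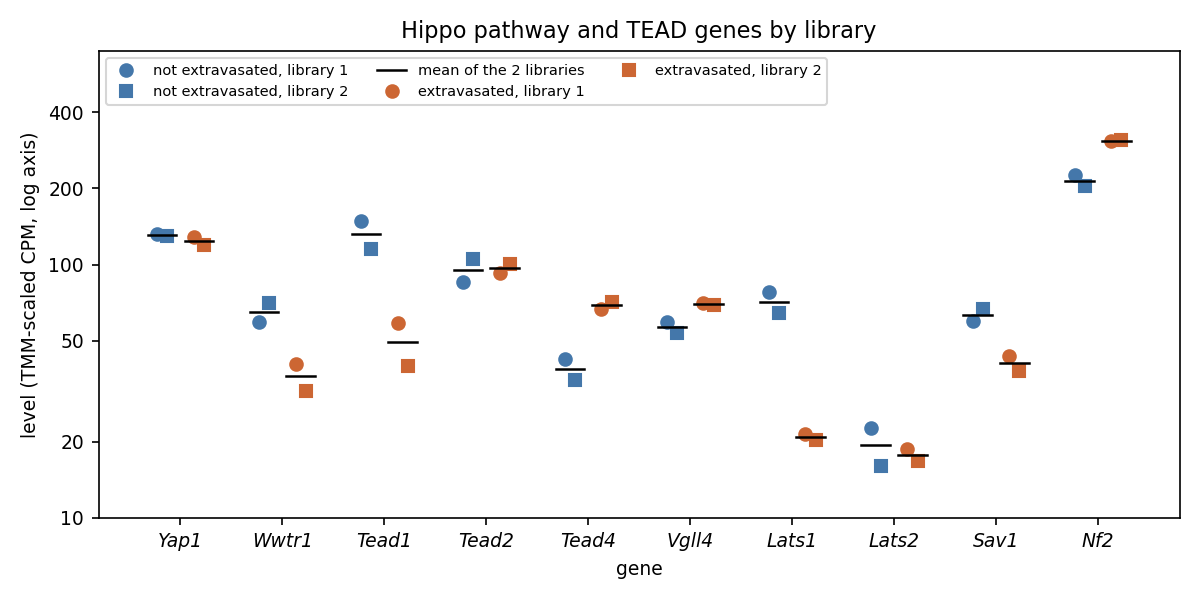
TMM-scaled CPM (log axis) of the 10 genes in each library, with 2 libraries per group and black bars at the group means. The groups are apart for Lats1 and Tead1 (lower in extravasated) and for Tead4 and Nf2 (higher), and overlap for Tead2 and Lats2.

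The fold changes of the 10 genes followed the base composition of their transcripts. The GENCODE transcripts of Lats1, Wwtr1, Sav1 and Tead1 had the lowest GC contents of the 10, at 43.0, 43.9, 45.9 and 46.5%, and these were the 4 that fell. The GC contents of Yap1 (50.4%), Lats2 (52.2%), Nf2 (53.5%), Vgll4 (53.9%), Tead2 (57.9%) and Tead4 (58.1%) were higher, and none of these fell. Spearman's rho of log2 fold change with transcript GC was 0.90 over the 10 genes, as a description of genes measured in the same libraries, and 0.74 over 11126 tested nuclear coding genes. When these coding genes were split into 10 bins of GC content, the median log2 fold change was -1.03 in the bin of Lats1 and Wwtr1, -0.67 in that of Tead1 and Sav1, -0.07 for Yap1, 0.14 for Lats2, 0.30 for Nf2 and Vgll4 and 0.48 for Tead2 and Tead4.

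A correction for GC content and transcript length, which smooths each library's deviations on these properties, is therefore given beside the fold changes. After it, 0 of the 10 genes passed as higher (2 at an unadjusted p under 0.05, and 2 passed in DESeq2 without correction) and 1 as lower, Lats1, against 14.1% of all tested genes (8.25% higher, 5.82% lower). The numbers passing at an unadjusted p under 0.05 were 6 of 10 before and 5 of 10 after correction, against 53.8 and 32.4% of all tested genes. Over all tested genes, 2355 were higher and 3196 lower before it, and 1017 and 717 after it. Across the 10 genes, rho with GC content was 0.42 after correction, and over the 11126 nuclear coding genes it was 0.012. How much of each difference belongs to the cells and how much to base composition was not tested.

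**Figure D2:**
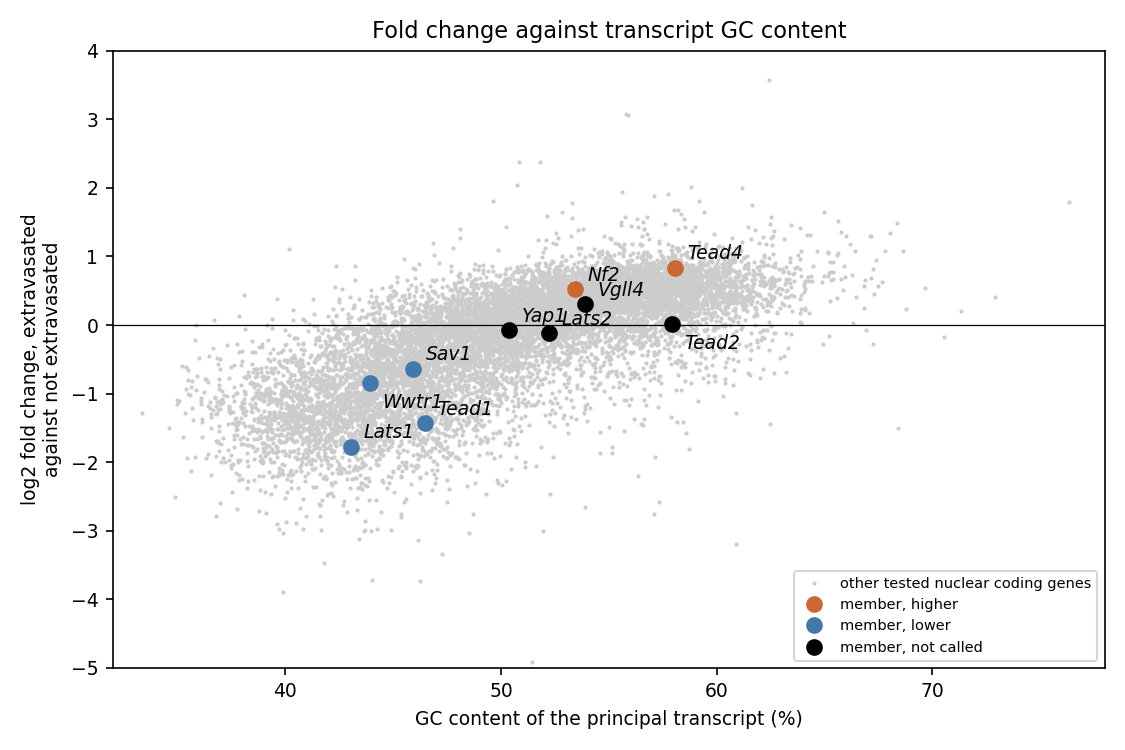
Log2 fold change (extravasated against not extravasated) against GC content of the principal transcript in percent, for tested nuclear coding genes (grey) and the 10 genes (coloured by call). Lats1, Wwtr1, Sav1 and Tead1 lie between 43.0 and 46.5% GC with negative values, and Tead4 lies at 58.1% with 0.84.

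Yap1 (chromosome 9, 7931999 to 8004596, minus strand of GRCm38) encodes the co-activator YAP. Its level was 133 and 129.5 CPM in the non-extravasated and 129 and 119.8 CPM in the extravasated libraries. All 4 values lie close together; the groups do not overlap, but only just. The log2 fold change was -0.074 ± 0.12 (SE; edgeR adjusted p = 0.648) and 0.032 ± 0.11 after correction. Upper quartile scaling put it at 0.019, so no direction can be given.

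Wwtr1, which encodes the related co-activator TAZ (chromosome 3, 57455649 to 57575910, minus strand), stood at 59.6 and 70.7 CPM in non-extravasated and 40.7 and 31.8 CPM in extravasated libraries. Both extravasated libraries were below both others. It fell 1.80-fold (log2 fold change -0.85 ± 0.17, SE; edgeR adjusted p = 0.00705). After correction the 4 levels were 40.0 and 53.4 against 54.7 and 47.2 CPM, which overlap, and the value was 0.12 ± 0.17 (adjusted p = 0.664). Without the second extravasated library the uncorrected value was -0.64 and not called (edgeR adjusted p = 0.0903). The ratio of Wwtr1 to Yap1 per kilobase of exon was 0.871 and 1.06 in non-extravasated and 0.610 and 0.513 in extravasated libraries. The log2 ratio differed by -0.78 (exact permutation p = 0.33, two-sided, the smallest that 2 against 2 libraries can give) and by 0.10 after correction.

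The 2 co-activators carry WW domains, and the windows below, the most alike in-frame stretches of 90 coding bases, lie in such a domain. They are shown because the uncorrected ratio of the paralogues differed between the groups while this part of their messages is much alike. Here 66 of 90 bases are identical, and capitals mark those that are not. The window is codons 162 to 191 of Yap1 and 130 to 159 of Wwtr1, and its GC content is 48.9 and 50%. The lower GC content of the Wwtr1 transcript sits behind its coding sequence: the coding parts have 58.8% (Yap1) and 58.1% (Wwtr1) GC, and the untranslated parts after them 44.0 and 37.3%.
Yap1: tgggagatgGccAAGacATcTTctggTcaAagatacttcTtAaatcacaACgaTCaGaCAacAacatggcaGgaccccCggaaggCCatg
Wwtr1: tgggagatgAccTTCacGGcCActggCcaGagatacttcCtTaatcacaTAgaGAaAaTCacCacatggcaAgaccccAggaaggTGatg
TEAD factors carry YAP and TAZ to DNA, and their genes moved in different directions. Tead1 (chromosome 7, 112679318 to 112906807, plus strand) stood at 149 and 115.8 CPM in non-extravasated and 58.6 and 40.0 CPM in extravasated libraries. The groups did not overlap, and each also differed within itself. Tead1 fell 2.69-fold (log2 fold change -1.43 ± 0.22, SE; edgeR adjusted p = 0.00349). Corrected, it was at -0.42 ± 0.14 (adjusted p = 0.0816), with 96.4 and 89.2 against 76.9 and 61.8 CPM, which do not overlap. That corrected value passed without the second non-extravasated library (-0.48, edgeR adjusted p = 0.0428) and was -0.27 without the second extravasated library.

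Tead4 (chromosome 6, 128224288 to 128300823, minus strand) stood at 42.4 and 34.9 CPM in non-extravasated and 67.0 and 71.0 CPM in extravasated libraries. Both extravasated values were above both others. It rose 1.79-fold (log2 fold change 0.84 ± 0.15, SE; edgeR adjusted p = 0.00469), and its corrected value was 0.42 ± 0.14 (adjusted p = 0.0816). The corrected levels were 49.4 and 40.2 against 60.4 and 59.4 CPM and did not overlap. The corrected value was 0.60 and passed without the first non-extravasated library (edgeR adjusted p = 0.00299), and was 0.29 and did not pass without the second (0.177).

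Tead2 (chromosome 7, 45215753 to 45233644, plus strand) stood at 85.1 and 105 CPM in non-extravasated and 92.4 and 101 CPM in extravasated libraries. The extravasated values lie between the others. Its log2 fold change was 0.022 ± 0.15 (SE; edgeR adjusted p = 0.917), and -0.12 or 0.19 without the first or second non-extravasated library, so no direction can be given. The corrected value was -0.37 ± 0.13 (adjusted p = 0.104), with -0.49 without the first non-extravasated library, where it passed (edgeR adjusted p = 0.00476), and -0.20 without the second, where it did not (0.288). Tead3, listed with the other core genes, was low, at 7.90 and 11.75 CPM against 6.21 and 7.95 CPM.

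Per kilobase of exon, the make-up of the Tead transcripts differed between the groups while their sum was close. The summed level of the 4 Tead genes was 41.8 and 42.0 CPM per kilobase in non-extravasated and 43.2 and 45.0 in extravasated libraries. Tead1 made up 26.4 and 20.3% of it in non-extravasated and 10.0 and 6.55% in extravasated libraries. Tead4 made up 28.2 and 23.1%, against 43.2 and 43.9%. Tead2 was the most abundant in every library, with 42.6 and 52.4% against 44.7 and 46.9%. With corrected levels, Tead1 made up 16.6 and 14.7% against 13.9 and 11.4%, a much smaller difference, and Tead4 32.1 and 24.9% against 41.2 and 41.4%. The corrected sums were 42.7 and 44.9 against 40.8 and 39.9 CPM per kilobase, so the small difference in the sum changed direction.

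The ratio of Tead4 to Tead1 per kilobase was 1.07 and 1.14 in non-extravasated and 4.31 and 6.70 in extravasated libraries, a difference of 2.28 on the log2 scale, and of 0.86 after correction. The ratio of Tead2 to Tead1 was 1.62 and 2.58 against 4.47 and 7.17, a difference of 1.47, and of 0.069 after correction. For both uncorrected differences the exact permutation p was 0.33, the smallest possible here. For Tead2 to Tead1 it was 0.667 after correction.

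**Figure D3:**
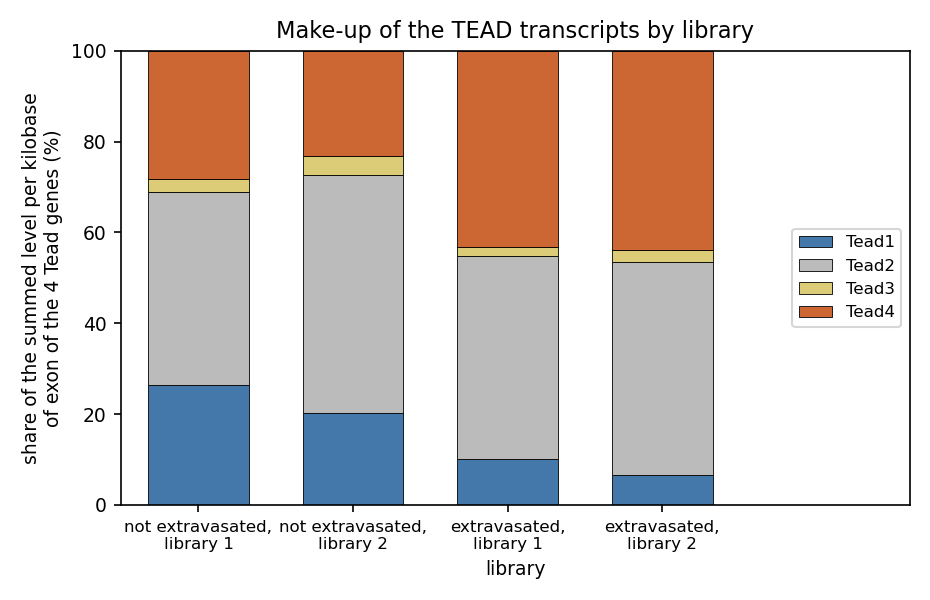
Share in percent, without correction, of each Tead gene in the summed level per kilobase of exon, in each of the 4 libraries. Tead1 takes 20.3 and 26.4% in non-extravasated and 6.55 and 10.0% in extravasated libraries, and Tead4 takes 23.1 and 28.2% against 43.2 and 43.9%.

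The sequences below show how the 3 Tead messages differ where they are most alike. They are in-frame windows of 90 coding bases from the TEA domain, which binds DNA, at codons 24 to 53 (Tead1), 49 to 78 (Tead2) and 40 to 69 (Tead4) of the annotated coding sequence. Of the 90 bases, 66 are the same in all 3, and capitals mark the others. The GC content of the window is 47.8% in Tead1, 55.6% in Tead2 and 57.8% in Tead4. At the last base of each codon it is 56.7, 70.0 and 73.3%. Over the whole coding sequence that last-base value is 58.9, 70.3 and 70.3%, in the same order. The order of GC content in the window is the same as the order of the uncorrected fold changes. Over the whole coding sequence GC content is 50, 60.2 and 55.9%, where Tead2 and Tead4 change places. Whether composition sets these fold changes was not tested.
Tead1: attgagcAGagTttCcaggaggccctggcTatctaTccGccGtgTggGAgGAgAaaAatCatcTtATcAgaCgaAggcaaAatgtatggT
Tead2: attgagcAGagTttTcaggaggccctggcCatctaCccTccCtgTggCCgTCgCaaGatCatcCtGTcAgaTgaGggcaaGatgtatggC
Tead4: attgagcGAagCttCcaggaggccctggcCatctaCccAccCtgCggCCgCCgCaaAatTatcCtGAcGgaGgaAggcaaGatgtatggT
Vgll4 (chromosome 6, 114860628 to 114969994, minus strand) encodes a cofactor that competes with YAP for TEADs. Its levels were 59.5 and 53.8 CPM in non-extravasated and 70.9 and 69.1 CPM in extravasated libraries. The groups did not overlap, but the log2 fold change of 0.31 ± 0.13 (SE) did not pass (edgeR adjusted p = 0.0945). It passed with upper quartile scaling (0.40, adjusted p = 0.0351). Corrected, it was at -0.038 ± 0.12, with 66.9 and 61.0 against 64.1 and 60.4 CPM, which overlap.

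Lats1 (chromosome 10, 7681214 to 7716460, plus strand), a kinase that phosphorylates YAP and TAZ, changed more than the other 9 genes. Its levels were 78.0 and 64.4 CPM in non-extravasated and 21.4 and 20.2 CPM in extravasated libraries. It fell 3.42-fold (log2 fold change -1.78 ± 0.16, SE; edgeR adjusted p = 0.00072). After correction the levels were 45.2 and 46.6 against 32.0 and 32.8 CPM, and the value was -0.51 ± 0.12 (edgeR adjusted p = 0.0354). The 2 libraries of each group lie close together on the corrected scale. The corrected value was -0.49 without the first and -0.52 without the second extravasated library, where it was not called (edgeR adjusted p = 0.224 and 0.238). Over all tested genes those fits called 65 higher and 48 lower, and 12 higher and 3 lower.

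Lats2 (chromosome 14, 57689662 to 57758388, minus strand), its paralogue and itself a described YAP target, stood at 22.7 and 15.97 CPM in non-extravasated and 18.7 and 16.8 CPM in extravasated libraries. The extravasated values lie between the others. The log2 fold change was -0.12 ± 0.22 (SE; edgeR adjusted p = 0.689), and -0.11 ± 0.20 after correction. Leaving out the first non-extravasated library put the uncorrected value at 0.15, so no direction can be given. The ratio of Lats2 to Lats1 per kilobase of exon was 0.304 and 0.260 in non-extravasated and 0.917 and 0.870 in extravasated libraries. The log2 ratio differed by 1.67, and by 0.41 after correction (exact permutation p = 0.33 for each, the smallest possible here).

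The most alike coding windows of the 2 kinases lie in the kinase domain, at codons 760 to 789 of Lats1 and 682 to 711 of Lats2, with 80 of 90 bases identical and the others in capitals. They are printed because here the paralogues do not differ in composition: GC content is 50% in both and 80% at the last base of each codon in both. Over the whole coding sequence the last-base value is 42.2% for Lats1 and 71.4% for Lats2. The untranslated part after the coding sequence has 36.4% GC over 3453 bases in Lats1 and 38.2% over 1629 bases in Lats2.
Lats1: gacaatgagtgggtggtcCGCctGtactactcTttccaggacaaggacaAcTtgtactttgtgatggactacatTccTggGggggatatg
Lats2: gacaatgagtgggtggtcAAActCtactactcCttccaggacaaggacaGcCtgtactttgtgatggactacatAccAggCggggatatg
Sav1 (chromosome 12, 69965012 to 69987002, minus strand), the scaffold of the MST kinases, stood at 60.1 and 66.7 CPM in non-extravasated and 43.7 and 37.9 CPM in extravasated libraries. Both extravasated values were lower. It fell 1.56-fold (log2 fold change -0.64 ± 0.15, SE; edgeR adjusted p = 0.0112). The corrected value was -0.069 ± 0.13, with 48.3 and 56.0 against 50.4 and 49.2 CPM, which overlap. Leaving out the first or second extravasated library gave -0.65 and -0.50 without a call (edgeR adjusted p = 0.0567 and 0.131). Sav1 overlaps Atl1 on the opposite strand, which had 759 counts over the 4 libraries against 3143 for Sav1. The strand setting of the counting is not given in the sources used here.

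Nf2 (chromosome 11, 4765845 to 4849536, minus strand), which encodes merlin, had the highest level of the 10 genes. It stood at 226 and 204 CPM in non-extravasated and 308 and 309.6 CPM in extravasated libraries. The extravasated libraries were nearly equal and both above the others. It rose 1.44-fold (log2 fold change 0.52 ± 0.12, SE; edgeR adjusted p = 0.0107). The corrected value was 0.40 ± 0.11 (adjusted p = 0.0531), with 233 and 215 against 297 and 296 CPM, again with no overlap. Uncorrected, Nf2 was not called without the second extravasated library (0.56, edgeR adjusted p = 0.0672). Corrected, it was called without the first non-extravasated library (0.47, edgeR adjusted p = 0.00581).

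**Figure D4:**
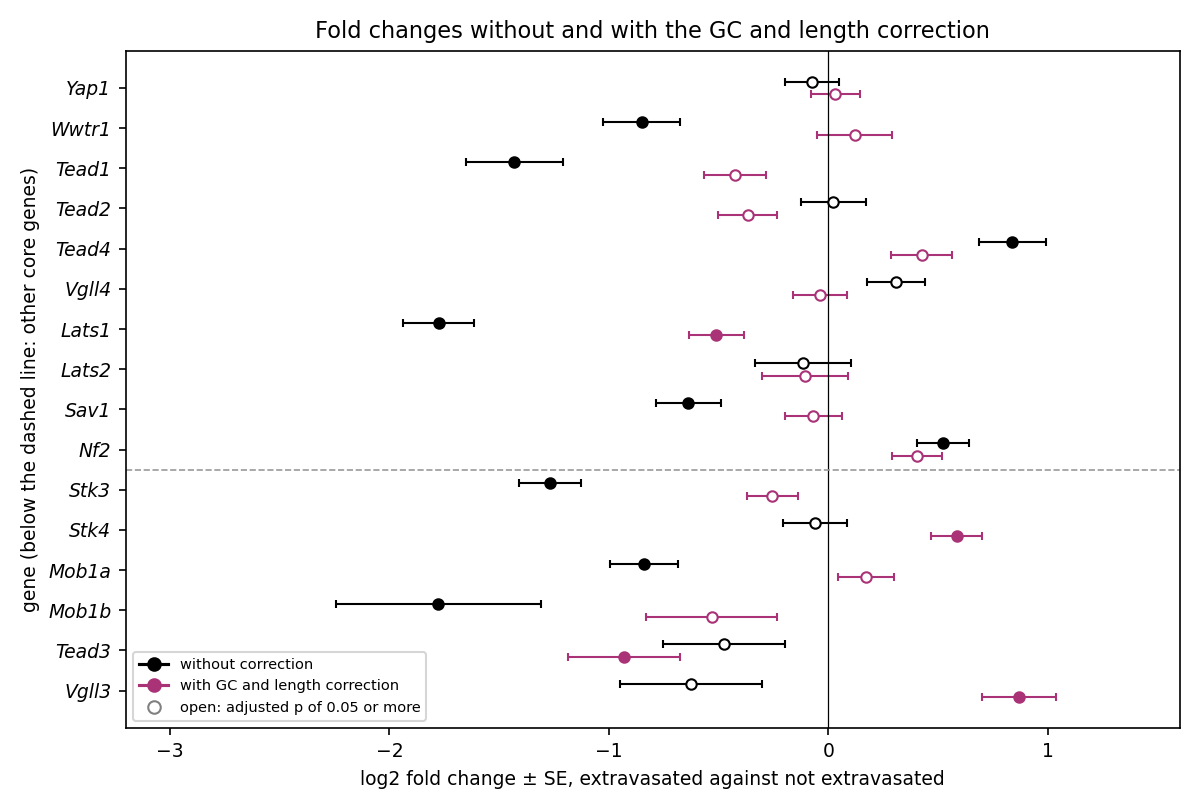
Log2 fold changes with standard errors for the 10 genes and, below the dashed line, 6 other core genes, without (black) and with (purple) the GC and length correction; filled points passed an adjusted p under 0.05. Lats1 is at -1.78 without and -0.51 with correction, Wwtr1 at -0.85 and 0.12, and Vgll3 at -0.63 and 0.87.

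Ordered by level per kilobase of exon without correction, Nf2 led in both groups, at 31.5 CPM per kilobase in non-extravasated and 45.3 in extravasated libraries, followed by Tead2 at 19.9 and 20.2. In non-extravasated libraries Yap1 (14.2), Wwtr1 (13.6), Sav1 (12.05), Tead4 (10.7), Vgll4 (10.5), Tead1 (9.77) and Lats1 (9.76) followed, each with a range that overlapped the next, apart from Lats1. Lats2 was last at 2.77. In extravasated libraries Tead4 (19.2) overlapped Tead2. Yap1 (13.4) and Vgll4 (13.0) overlapped each other, as did Sav1 (7.75) and Wwtr1 (7.58). Tead1 (3.63), Lats1 (2.85) and Lats2 (2.55) came last, with no overlap. Per kilobase of the principal transcript Yap1 moved up to second place in non-extravasated libraries, at 31.8, since its annotated exons span 9257 bases and that transcript 4115. There Lats1 (2.88) came after Lats2 (3.42) in extravasated libraries.

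Among 8 other core genes, 6 were tested, of which 3 fell and 0 rose in the edgeR test (0 rose at an unadjusted p under 0.05 and 0 in DESeq2), beside 25.9% lower and 19.1% higher over all tested genes. The MST kinase gene Stk3 stood at 110 and 94.6 CPM in non-extravasated and 41.9 and 43.0 CPM in extravasated libraries, and fell 2.41-fold (edgeR adjusted p = 0.00098). Its paralogue Stk4 stood at 159 and 137 against 154 and 129 CPM, which overlap. The MOB1 genes, whose products activate LATS kinases, both fell. Mob1a stood at 184 and 169 against 111 and 86.0 CPM and Mob1b at 36.4 and 14.2 against 7.65 and 7.003 CPM, with log2 fold changes of -0.84 and -1.78 (edgeR adjusted p = 0.00497 and 0.0298).

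Vgll3, a TEAD cofactor, was high in 1 library, at 391 and 197 CPM in non-extravasated and 179 and 202 CPM in extravasated libraries, and did not pass (log2 fold change -0.63, edgeR adjusted p = 0.172). Vgll1 and Vgll2 had 0 counts in each library, which allows up to 0.158 to 0.260 CPM (3 counts, counting error only). After correction Stk4 (0.58) and Vgll3 (0.87) were higher and Tead3 (-0.93) lower (edgeR adjusted p = 0.0193, 0.0186 and 0.0494). In that fit 8.25% of all tested genes were higher and 5.82% lower. Stk3 (-0.26), Mob1a (0.17) and Mob1b (-0.53) did not pass. With the first or second extravasated library left out, the corrected value was 0.56 or 0.63 for Stk4 and -0.80 or -1.05 for Tead3. A corrected fit with 1 extravasated library calls few genes of any kind, so it cannot decide whether these calls hold. In the uncorrected test, Mob1b was not called without the first extravasated library (-1.73), and neither Mob1a (-0.63) nor Mob1b (-1.66) without the second. Mob1b was still called without the first non-extravasated library, its highest, but at -0.96, and its corrected value was -0.083 with the longest transcript. Without the second non-extravasated library Vgll3 was called at -1.03, and without the first Tead3 was called at -0.72.

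Of 30 upstream regulators, 27 were tested, 7 rose and 9 fell, beside 19.1% higher and 25.9% lower over all tested genes, with a median log2 fold change of -0.13. Fat4, Dchs1 and Rassf5 did not pass the filter. Strn3 and Strn encode striatins, scaffolds of a phosphatase complex that acts on MST kinases. Strn3 stood at 100.3 and 81.4 CPM in non-extravasated and 23.9 and 28.3 CPM in extravasated libraries, and Strn at 87.7 and 78.2 against 24.8 and 27.4 CPM. They fell with log2 fold changes of -1.79 and -1.66 (edgeR adjusted p = 0.000731 and 0.00072). The kinase gene Map4k3 stood at 58.8 and 53.0 against 25.6 and 25.7 CPM and fell by 1.12 on the log2 scale (edgeR adjusted p = 0.00155).

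Wtip, which encodes a LIM protein that restrains LATS kinases, stood at 17.9 and 15.3 against 39.1 and 36.01 CPM and rose 2.27-fold (edgeR adjusted p = 0.00212). Scrib, a polarity scaffold gene, stood at 135 and 141 against 215 and 233 CPM and rose 1.62-fold (edgeR adjusted p = 0.00404). After correction, with 8.25% of all tested genes higher and 5.82% lower, 1 regulator rose, Scrib (0.43), and 2 fell, Strn3 (-1.31) and Btrc (-0.61), a subunit gene of the ubiquitin ligase that recognises phosphorylated YAP. With the longest transcript the 2 were Strn3 and Csnk1e (-0.52), not Btrc. Btrc and Csnk1e are named because the counts are small, after their values were seen. Strn (-0.50), Map4k3 (-0.28) and Wtip (0.59) did not pass. As over all tested genes, the counts of risen and fallen regulators changed with the library left out. With correction, Strn3 was at -1.11 or -1.53 and Scrib at 0.45 or 0.42 without the first or the second extravasated library. Those fits call few genes of any kind, so they cannot decide whether these calls hold.

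**Figure D5:**
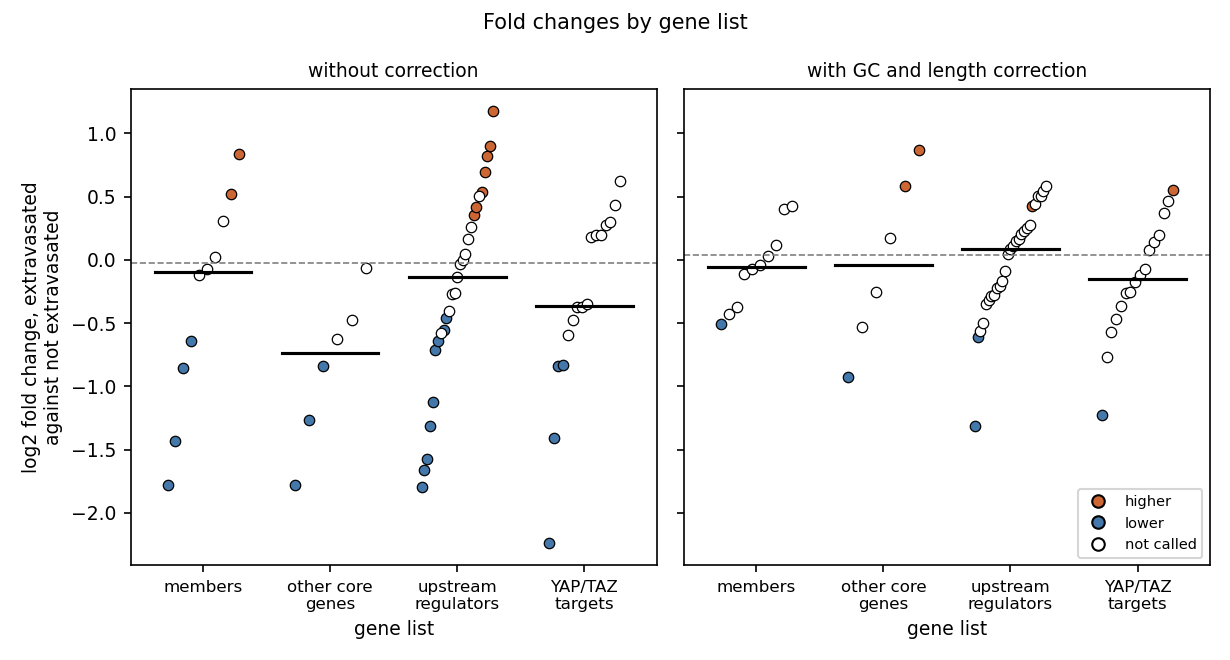
Log2 fold change of each tested gene in the 4 lists (10 members, 6 other core genes, 27 upstream regulators, 16 targets), without (left) and with (right) the GC and length correction; solid bars are list medians and the dashed line is the median of all tested genes. Over all 59 genes, 9 are coloured as higher and 20 as lower on the left, and 4 and 5 on the right. Of all tested genes, 19.1% were higher and 25.9% lower without the correction, and 8.25% and 5.82% with it.

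Of 21 genes described as YAP and TAZ targets in other cells, 16 were tested, of which 4 fell and 0 rose in the edgeR test, beside 25.9% lower and 19.1% higher over all tested genes. Their median log2 fold change was -0.36. At an unadjusted p under 0.05 there were 2 higher and 6 lower, beside 53.8% of all tested genes in either direction. DESeq2 called 2 higher (Ccn2 and Amotl2) and 5 lower, beside 2232 higher and 2904 lower over the whole table. Ccn2, which encodes a matricellular protein, stood at 64.6 and 33.6 CPM in non-extravasated and 75.6 and 75.0 CPM in extravasated libraries. Its log2 fold change of 0.62 ± 0.31 (SE) did not pass (edgeR adjusted p = 0.151), but did without the first non-extravasated library (1.17), and was 0.23 without the second (edgeR adjusted p = 0.287). Ccn1, its relative, stood at 95.0 and 146 against 139.6 and 138 CPM, which overlap. Its value of 0.20 was 0.55 and called without the second non-extravasated library, and -0.076 without the first. The 2 non-extravasated libraries thus differed in opposite directions for Ccn1 and Ccn2.

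Amotl2, an angiomotin gene, stood at 98.1 and 69.8 against 116 and 110.3 CPM (log2 fold change 0.43, edgeR adjusted p = 0.0772). Axl, a receptor tyrosine kinase gene, stood at 29.4 and 35.8 against 37.9 and 41.3 CPM (0.28, adjusted p = 0.194). Amotl2 was called at 0.70 without the first non-extravasated library. Neither passed after correction (0.15 and 0.076). Ankrd1, a textbook YAP target, had 0 counts in all 4 libraries, as had Igfbp3, Foxf2 and Nt5e.

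The 4 targets that fell were Rbms3, Tgfb2, F3 and Crim1. Rbms3, an RNA-binding protein gene, stood at 10.6 and 6.48 against 1.97 and 1.63 CPM, with 26 and 31 counts in the extravasated libraries, and fell 4.72-fold (edgeR adjusted p = 0.00289). Tgfb2, a TGF-beta ligand gene, stood at 13.97 and 13.4 against 4.77 and 5.48 CPM and fell 2.66-fold (edgeR adjusted p = 0.00289). F3 (tissue factor) and Crim1 had log2 fold changes of -0.84 and -0.83. After correction 1 target fell, Rbms3 (-1.23), and 1 rose, Ptpn14 (0.56), a phosphatase gene that binds YAP. Over all tested genes, 8.25% were higher and 5.82% lower in that fit. Uncorrected, Ptpn14 stood at 260 and 182 CPM in non-extravasated and 264 and 242 CPM in extravasated libraries, which overlap. Its uncorrected log2 fold change was 0.20 (edgeR adjusted p = 0.4). Tgfb2 (-0.77), F3 (-0.37) and Crim1 (-0.57) did not pass after correction. With the longest transcript, Rbms3 did not pass (-0.76, edgeR adjusted p = 0.11) and Tgfb2 did (-0.81, edgeR adjusted p = 0.0497). Without the first or second extravasated library, F3 (-0.78 and -0.75) and Crim1 (-0.80 and -0.71) were not called before correction.

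TEAD factors bind the motif GGAATG. It was searched on both strands (CATTCC on the other) in the 250 bases before each annotated start in RefSeq's promoter table (GRCm38.p6), where 12.6% of 32851 windows hold it and 1.02% hold 2 or more matches. Of the 10 genes, 8 had an entry, and Tead1 and Tead4 had none. Windows of Yap1, Wwtr1, Sav1 and Vgll4 held 1 match each, and those of Tead2, Lats1, Lats2 and Nf2 held 0. The 4 with a match were 2 genes that fell (Wwtr1 and Sav1) and 2 that were not called (Yap1 and Vgll4). Of the 19 other named genes with an entry, 10 held a match in at least 1 entry and 9 held 0. These counts are per gene, some with several entries, and the genes were picked by name or by call. They cannot be compared directly with the 12.6% of windows, and enrichment was not tested. Wtip's window held 4 matches, Ankrd1's 2, 1 of the 3 entries of Tead3 held 2, and those of Ccn1, Amotl2, Axl, Crim1, Mob1a, Vgll1 and Vgll3 1 each. Of the fallen targets, Rbms3, F3 and Tgfb2 held 0 and Crim1 held 1.

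The windows of both co-activators and of 2 textbook targets are printed, the latter because Ccn1 was well expressed and Ankrd1, with more matches, had no counts. They run 5′ to 3′ on the gene's strand, which is the minus strand for all 4, at chr9:8004597-8004846 (Yap1), chr3:57575911-57576160 (Wwtr1, the first of 2 entries), chr3:145649986-145650235 (Ccn1) and chr19:36119845-36120094 (Ankrd1). Capitals mark the motif. GC content is 76.4% for Yap1 and 61.6% for Wwtr1, against 54.8 and 55.6% for Ccn1 and Ankrd1.
Yap1: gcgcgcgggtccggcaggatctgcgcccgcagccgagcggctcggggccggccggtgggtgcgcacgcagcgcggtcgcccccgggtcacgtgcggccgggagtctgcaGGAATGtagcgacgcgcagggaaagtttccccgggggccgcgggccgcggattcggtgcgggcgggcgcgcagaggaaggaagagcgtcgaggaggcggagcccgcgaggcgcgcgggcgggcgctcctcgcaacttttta
Wwtr1: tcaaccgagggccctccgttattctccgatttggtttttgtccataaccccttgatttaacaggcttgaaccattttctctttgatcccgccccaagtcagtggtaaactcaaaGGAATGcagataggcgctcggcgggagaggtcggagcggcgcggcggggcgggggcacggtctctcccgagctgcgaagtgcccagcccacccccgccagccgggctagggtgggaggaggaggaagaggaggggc
Ccn1: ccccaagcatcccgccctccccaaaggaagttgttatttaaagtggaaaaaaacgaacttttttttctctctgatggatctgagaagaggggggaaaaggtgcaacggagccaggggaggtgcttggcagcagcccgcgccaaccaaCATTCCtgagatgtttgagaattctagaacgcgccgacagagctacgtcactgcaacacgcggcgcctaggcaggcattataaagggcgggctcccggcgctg
Ankrd1: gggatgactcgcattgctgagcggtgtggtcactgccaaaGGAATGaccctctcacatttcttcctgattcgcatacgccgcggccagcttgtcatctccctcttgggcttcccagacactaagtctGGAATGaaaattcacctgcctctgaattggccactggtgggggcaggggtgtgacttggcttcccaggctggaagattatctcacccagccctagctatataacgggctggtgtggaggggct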

How the data were processed

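The authors deposited one table of read counts, not normalized, for 53465 genes, of which 32416 had no read. Per the submitters' processing notes the tools were STAR 2.5.3a and bcl2fastq 2.18.0.12, with GRCm38 as genome. Counter, annotation release, strand setting and filters are not given in the sources used here. Without their version, 53360 identifiers matched GENCODE M21. The 2 extravasated and 2 non-extravasated libraries were compared in R 4.3.3 with edgeR 4.0.16, using its quasi-likelihood test (two-sided, robust), TMM factors and filterByExpr with a minimum count of 10 and a minimum total of 15. Benjamini-Hochberg adjustment ran over all 12320 tested genes, and 0.05 was the threshold. The SE is the log2 fold change divided by the square root of F.

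For the correction, mgcv 1.9.3 smoothed each library's deviation in log2 CPM (prior count 2, basis size 10) on GC content and log2 length of the transcript, and the smooth became an offset of the edgeR fit. The APPRIS principal transcript with a complete coding sequence was used, and the longest one as an alternative. Which transcript the cells made was not measured. Corrected CPM have that smooth taken off. Levels per kilobase used the union of annotated exons. The code was tested on simulated counts.

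The 10 genes and the lists were chosen with earlier results of these data known. Further genes named were the 8 other core genes, from the upstream and target lists up to 5 called genes each with the smallest adjusted p, and Ccn1, Ccn2, Ankrd1, Axl and Amotl2. Btrc, Csnk1e, Ptpn14, Mitf, Tyr and Pdgfra were named after their values were seen. Alternatives were DESeq2 1.42.0, upper quartile and RLE factors, no filter, CPM above 1 in at least 2 libraries, the kind of title suffix as a term, both corrections, and leaving out each library. Replicate numbers only name the libraries.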

Additional observations from a re-analysis of the deposited data

How the results depend on the processing

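The main test was not paired: replicate numbers only name the libraries, and the groups share only 1 title suffix, C, the others being a and b. A term for the kind of suffix, C against a or b, was fitted as an alternative, which treats the libraries as pairs. It gave 2632 genes higher and 3533 lower. Each group also has its own number in the sample titles, and what it marks cannot be told apart from extravasation. RLE factors and the CPM filter changed no call among the 29 named genes with a test. DESeq2, no filter and the title suffix term each added calls for Amotl2, Ccn2 and Vgll3 and changed none of the other 26, with 2 higher targets each. Upper quartile factors gave 2 higher targets, with Amotl2 called and Ccn2 not (edgeR adjusted p = 0.061). They also added a call for Vgll4, and put Yap1 at 0.019 and Stk4 at 0.034.

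The correction with the principal and the longest transcript gave 1017 and 977 genes higher and 717 and 662 lower over all tested genes. Both gave 0 of the 10 genes higher and 1 lower, 2 other core genes higher and 1 lower, 1 upstream regulator higher and 2 lower, and 1 target higher and 1 lower. The lower ones were not all the same genes: Btrc and Rbms3 were called with the principal and Csnk1e and Tgfb2 with the longest transcript. Directions turned for Wwtr1 (0.12 and 0.090), Yap1 (0.032 and 0.0037), Tead2 (-0.37 and -0.38), Vgll4 (-0.038 and -0.066), Stk4 (0.58 and 0.54), Mob1a (0.17 and 0.14), Vgll3 (0.87 and 0.86) and Ccn1 (-0.070 and -0.11), and for the log2 ratio of Wwtr1 to Yap1 (0.10, an alternative chosen after seeing the data). The cause was not tested. Counts with no length put Tead1 at 47.8 and 22.2% and Tead4 at 13.97 and 31.1% of the Tead level in non-extravasated and extravasated libraries, and the principal transcript's length put Tead4 at 21.7 and 38.2%. The correction, added after seeing the data, put Tead1 at 15.6 and 12.7% and Tead4 at 28.5 and 41.3%.

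With 1 library left out, uncorrected counts over all tested genes were 545 to 2758 higher and 1329 to 3541 lower, and corrected ones 12 to 2111 and 3 to 1558. Of the 10 genes, 1 to 2 were higher and 2 to 4 lower (0 to 2 and 0 to 2 corrected). Other core genes gave 0 higher and 1 to 4 lower (0 to 2 and 0 to 1), upstream regulators 4 to 10 and 3 to 11 (0 to 9 and 0 to 7), and targets 0 to 3 and 2 to 6 (0 to 3 and 0 to 4). Over these fits, with and without correction, both signs occurred for Yap1 (-0.086 to 0.051), Wwtr1 (-0.97 to 0.36), Tead2 (-0.49 to 0.19), Vgll4 (-0.094 to 0.39), Lats2 (-0.35 to 0.15), Sav1 (-0.71 to 0.060), Stk4 (-0.16 to 0.65), Mob1a (-0.94 to 0.31), Vgll3 (-1.03 to 1.13), Ccn1 (-0.33 to 0.55), Amotl2 (-0.069 to 0.70) and Axl (-0.057 to 0.44). The lone library is taken to vary like the other group.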
